A study of Homo sapiens with 4 samples.

Results

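HNF4A chromatin immunoprecipitation was compared with its IgG background at high glucose in HCCLM3 cells, over all 5326 regions of the deposited high glucose table. Every region of the table was a member (5326 of 5326), and no measured value chose them. HCCLM3 is an established line of human liver cancer cells. The assay sequences DNA fragments pulled down with an antibody to HNF4A, and the same procedure with unspecific IgG measures background. The series held 4 libraries, 1 per group: HNF4A at high glucose, IgG at high glucose, HNF4A at low glucose and IgG at low glucose. All were of HCCLM3, for which the labels describe stable overexpression lines made by lentiviral transduction. The labels name neither the overexpressed cDNA nor the glucose concentrations, and their growth protocol gives 1 high glucose medium for all 4 libraries, those called low glucose included. With 1 library per group no difference has a replicate check, no test was run, and ratios carry exact 95% Clopper-Pearson intervals for counting error only. The reads are of DNA, so the cell type could not be checked from marker expression.

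HNF4A is a nuclear receptor that binds DNA as a homodimer, at sites built from copies of a short hexamer separated by a single base. In hepatocytes it is known as a regulator of genes for lipoproteins, clotting factors, bile acid and drug metabolism and other transcription factors, and loss of its activity accompanies loss of the hepatocyte state in liver tumours. In a chromatin immunoprecipitation, a site held by the factor has more reads with its antibody than with IgG, while regions rich in reads for other reasons have many reads with both.

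The letters HNF4A is known to bind are shown first, in promoters of genes whose nearest region had a counting interval wholly above a 2-fold excess of HNF4A over IgG. The motifs searched were CAAAGTCCA, CAAAGTTCA and CAAAGGTCA on both strands, which differ in their letters, so no position can hold more than 1 of them on a strand. Each line is 60 bases upstream of the RefSeq start in GRCh38.p14, 5′ to 3′ on the strand of the gene, with the match in capitals (on the opposite strand it reads as its reverse complement).
AKR1A1: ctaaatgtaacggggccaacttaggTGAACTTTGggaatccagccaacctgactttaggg
AGMAT: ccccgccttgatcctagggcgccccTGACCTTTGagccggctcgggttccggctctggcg
ERICH4: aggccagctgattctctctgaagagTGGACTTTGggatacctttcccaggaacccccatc
ABLIM1: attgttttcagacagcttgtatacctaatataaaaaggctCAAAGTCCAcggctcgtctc
HMGCS1: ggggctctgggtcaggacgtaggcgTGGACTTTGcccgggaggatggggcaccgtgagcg
The windows lie at chr1:45550585-45550644 (plus strand), chr1:15585057-15585116 (minus), chr19:41443004-41443063 (plus), chr10:114685004-114685063 (minus) and chr5:43313195-43313254 (minus). A match is a description of letters and not a site, and 1.34% of all 27305 RefSeq promoters of the same length held one of these motifs. Among region genes with a promoter sequence, 56 of 3136 (1.79%) held one, and the 5 windows were chosen from those whose region lay wholly above 2-fold. The deposited regions are in hg19, so the distance from a region to these letters was not determined. Among genes of the 200 highest ratios described below, 2 of 140 with a promoter sequence (1.43%) held a motif. Among genes of the 200 lowest, 2 of 123 (1.63%) did, so the high end had no larger share than all region genes. Only 71.8% of genes at the high end and 67.2% at the low end had a promoter sequence. No difference in motif share or base composition between the ends was tested.

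The region nearest AKR1A1, which encodes an aldehyde reductase, held 39 HNF4A and 3 IgG reads, for a log2 ratio of 3.55 (1.90 to 5.89). At AGMAT, an agmatinase gene, the reads were 51 and 8, giving a log2 ratio of 2.53 (1.44 to 3.81), and the same region stood at 3.62 in the low glucose libraries. HMGCS1 encodes the cytosolic HMG-CoA synthase of cholesterol synthesis, and its region held 59 and 14 reads at a log2 ratio of 1.93 (1.07 to 2.88). ERICH4 had 90 and 15 reads and a log2 ratio of 2.44 (1.64 to 3.33). The actin-binding protein gene ABLIM1 had 57 and 11 reads and a log2 ratio of 2.23 (1.28 to 3.31). All 5 regions were above IgG at low glucose as well, at log2 ratios from 1.11 to 3.62.

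MicroRNA genes were the nearest gene of 157 regions, and 8 of those lay among the 200 highest ratios described below. Taken by gene symbol instead, a set of 170 regions, 73 microRNA regions were deep enough to be ranked. Of those, 8 (10.96%) were among the 200 highest, against 7.51% of all such regions. Mature sequences from RefSeq of the microRNA genes at this end are shown with the seed in capitals. The seed is bases 2 to 8 from the 5′ end, and it shows whether these loci belong to 1 seed family.
hsa-miR-506-3p: uAAGGCACccuucugaguaga
hsa-miR-1288-3p: uGGACUGCccugaucuggaga
hsa-miR-4783-5p: gGCGCGCCcagcucccgggcu
hsa-miR-3692-5p: cCUGCUGGucaggaguggauacug
hsa-miR-4651: cGGGGUGGgugaggucgggc
hsa-miR-4290: uGCCCUCCuuucuucccuc
hsa-miR-3193: uCCUGCGUaggaucugaggagu
Each of these has a seed of its own. The MIR506 region (X, 146262242 to 146263011, hg19) held 75 HNF4A and 9 IgG reads at high and 50 and 10 at low glucose. Its log2 ratio at high glucose was 2.91 (1.91 to 4.10). MIR1288 had 2 regions at this end, with 92 against 13 reads and 131 against 31. Of the 131 microRNA genes nearest a region, 115 had a mature sequence in the RefSeq table.

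Most regions had more scaled reads with HNF4A than with IgG, and the excess was modest. HNF4A was above IgG in 4482 regions (84.2%) and below it in 844 (15.8%), with a median log2 ratio of 0.79 and 5th and 95th percentiles of -0.41 and 2.62. An excess of at least 2-fold was seen in 2218 regions (41.6%), and a deficit of at least 2-fold in 56 (1.05%). Centred on the median of all regions, these counts were 956 and 496, so the balance of the sides depends on how the libraries are scaled to each other. The counting interval lay wholly above 2-fold in 729 regions (13.7%) and wholly below a ratio of 1 in 110 (2.07%). In the authors' deposited table, 264 regions (4.96%) had an unadjusted p-value under 0.05 above IgG and 1 (0.0188%) below it, while 0 had a false discovery rate under 0.05. The 2 high glucose libraries held 402237 HNF4A and 249744 IgG reads in these regions, and their 53 deepest regions took 19.86% and 27.46% of those reads. The sources used here do not say how the authors chose the regions.

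Read depth and region length moved with the ratio. When regions were cut into 10 equal classes of level, the class with the lowest level had a median log2 ratio of 1.44 and an SD of 1.51 over regions. Its median region was 570 bp long with 19 HNF4A and 7 IgG reads. In the class with the highest level, the median region was 2467 bp long with 155 and 103 reads, and its log2 ratios had a median of 0.37 and an SD of 0.57 over regions. The median width of the counting interval narrowed from 2.90 to 0.76 log2 units between these classes. Of the 56 regions at least 2-fold below IgG, 35 were in the lowest class of level. That class held 322 of the 2218 regions at least 2-fold above IgG. The highest ratio of the table, log2 5.78, lay in class 4 counted from the lowest.

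**Figure D1:**
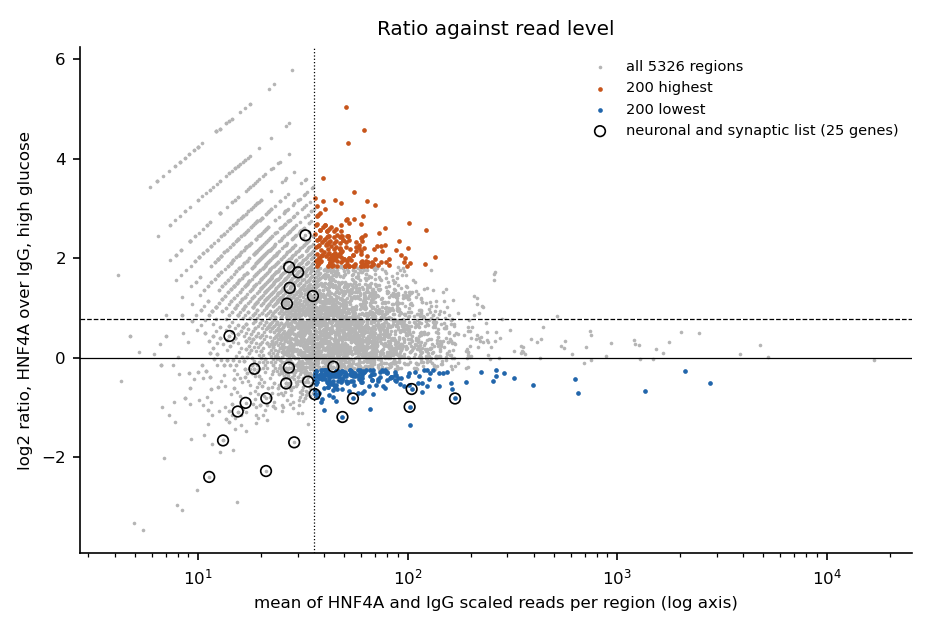
Log2 ratio of HNF4A over IgG at high glucose (vertical axis) against the mean of HNF4A and IgG scaled reads per region (log axis) for 5326 regions. The dashed line is the median of 0.79, the dotted line the median level of 35.9 reads; orange and blue points are the 200 highest and 200 lowest ratios at or above that level, and circles mark 25 neuronal and synaptic genes, 18 of which lie below 0.

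Length set apart the shortest of 10 classes. Regions of 101 to 606 bp had a median log2 ratio of 0.25, with 18 HNF4A and 13 IgG reads in the median region, and they held 52 of the 56 regions at least 2-fold below IgG. The next class, of 606 to 740 bp, had a median of 1.30 with 27 and 11 reads. From there the median ratio fell with each class to 0.40 in the longest, of 2042 to 8704 bp. From the second class to the longest, HNF4A reads per kb went from 40.5 to 52.2 and IgG reads per kb from 15.8 to 35.1. The shortest class had 36.5 IgG reads per kb. Per kb, the IgG side thus moved more with length than the HNF4A side.

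Without a limit on level, the highest ratios came from regions where IgG was listed at 1 read, as in 42 regions in all. PPP2CB, a catalytic subunit gene of protein phosphatase 2A, had 61 HNF4A reads against 1, log2 5.78 (3.25 to 11.11). PCSK5, a proprotein convertase gene, had 50 against 1. APOL4, of the apolipoprotein L family, had 47 against 1, and DUSP5, a nuclear phosphatase of ERK kinases, 38 against 1. In the low glucose libraries the same regions had 44 against 4 reads at PPP2CB, 13 against 8 at PCSK5, 32 against 6 at APOL4 and 19 against 6 at DUSP5. All 4 stayed above IgG there, by as little as a log2 ratio of 0.67 at PCSK5. Among regions with a gene name, the lowest ratios were those of DNAH5, an axonemal dynein gene, with 1 against 10 reads, and M6PR, a mannose 6-phosphate receptor gene, with 2 against 15. DNAH5 was on the other side of IgG at low glucose, with 13 against 2 reads, and M6PR stayed below it with 4 against 8.

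The ends of the table were therefore described among the 2663 regions whose level was 35.9 scaled reads (the median) or more, and whose median log2 ratio was 0.56. In alphabetical order, the 10 highest, 1 per gene, lay nearest DUSP6, FAM110B, MOCOS, NDST1, NUCB1, PRKG2, RRAS2, SKIL, TBX15 and USP38. The 10 lowest lay nearest ANKRD20A12P, CACNA1B, HDX, ING5, LOC101929116, LOC283440, NPAS4, SCRT1, SYT7 and XKR7. The values below are of the regions that follow them, ranks 11 to 40 at each end, and of the 200 regions at each end.

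The 200 highest ratios ran from 1.84 to 5.04 with a median of 2.18. Their median region was 1156 bp long and held 87 HNF4A and 17 IgG reads, or 74.8 and 14.9 reads per kb, against 51.0 and 30.6 reads per kb over all regions at this level. The choice by ratio fixes the direction of this difference. At the edge, the last region inside had a log2 ratio of 1.8373 and the first outside 1.8365. The 200 lowest ran from -1.35 to -0.24 with a median of -0.39, and their median region was 1271.5 bp long with 53 HNF4A and 62.5 IgG reads, or 40.3 and 48.6 per kb. Here the last region inside had -0.2370 and the first outside -0.2329. The low end was close to IgG: 53 of its 200 counting intervals lay wholly below 0.

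Low glucose libraries did not rank these regions, and their values are given for both ends. The same 5326 regions were listed at both glucose levels, and how the authors chose them is not known. The low glucose libraries may have taken part in that choice, so this is not an independent reading. Of the 200 highest, 170 (85.0%) were at least 2-fold above IgG at low glucose and 0 were below it, with log2 ratios from 0.25 to 4.22 and a median of 1.56. Over all 2663 regions at this level, 912 (34.2%) were at least 2-fold above. Of the 200 lowest, 68 (34.0%) were below IgG at low glucose and 11 were at least 2-fold above, with a median of 0.26. Over all regions at this level, 238 (8.94%) were below. The high end was thus on the same side of IgG in both pairs of libraries, whereas most regions of the low end were above IgG in the second pair.

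**Figure D2:**
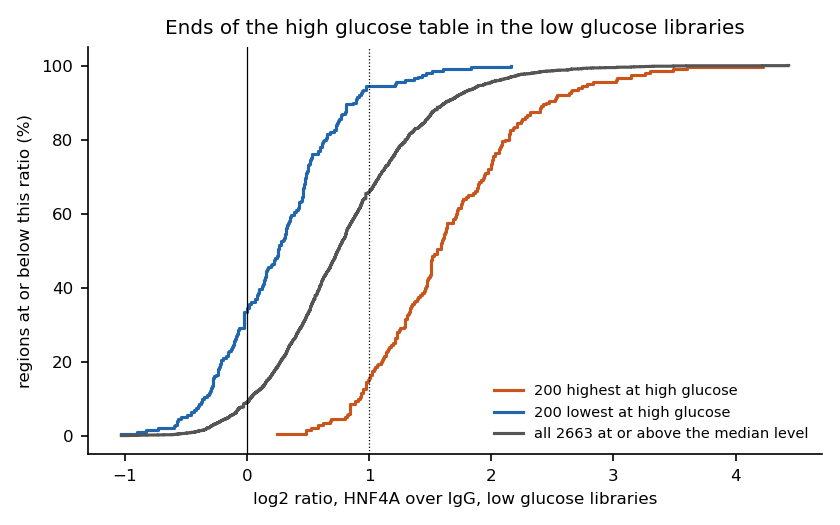
Cumulative share of regions (percent, vertical axis) by log2 ratio of HNF4A over IgG in the low glucose libraries (horizontal axis). The curve of the 200 highest ratios at high glucose has a median of 1.56, that of the 200 lowest a median of 0.26, and all 2663 regions at or above the median level a median of 0.75.

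At ranks 11 to 40 of the high end, AHR, the ligand-activated receptor that induces drug-metabolizing enzymes, had 98 HNF4A and 13 IgG reads at high and 22 and 15 at low glucose (chromosome 7, 17138801 to 17139593, hg19). Its log2 ratio was 2.77 (1.93 to 3.73) at high and 0.53 at low glucose, the smallest low glucose value of these 30 regions. UPB1, the last enzyme of pyrimidine breakdown, had 101 and 14 reads at high and 48 and 17 at low glucose. SLC22A7, an organic anion transporter of hepatocytes, had 78 and 12 reads at high and 54 and 12 at low glucose, and C4BPB, a chain of the complement regulator C4b-binding protein, had 91 and 14 and then 45 and 25. PAOX, a polyamine oxidase gene, had 79 and 9 reads at high and 58 and 8 at low glucose. Each of these regions had more scaled HNF4A than IgG reads in both pairs of libraries.

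CXCL17, a mucosal chemokine gene, had 115 HNF4A and 16 IgG reads at high and 44 and 14 at low glucose. CTLA4, an inhibitory receptor of T cells, had 86 and 13 and then 49 and 19. These are positions of nearby genes and not a measure of their expression. ATP1B1, a subunit of the sodium pump, had 75 and 11 reads at high and 53 and 14 at low glucose. SPTBN4, a spectrin gene, had 72 and 11 and then 37 and 3, and its low glucose log2 ratio of 3.60 was the highest of the 30. RPTOR, the scaffold of mTORC1, had 78 and 12 reads and then 57 and 5 (chromosome 17, 78602909 to 78604029, hg19). Other neighbours included LENG8, MB21D2, MIR506, LINC00936, PHYHIP, URGCP-MRPS24, EPDR1, LOC100288846, LOC101927901, LOC100130075, MIR1288, BTBD16, MLPH, C2CD2, GABRE, ERCC6L, MYO15B, LINC00294 and RHOU. Over all 30, regions were 706 to 2083 bp long with 70 to 231 HNF4A and 8 to 35 IgG reads, and log2 ratios ran from 2.55 to 3.07. At low glucose 30 of 30 were above IgG, where only 8.94% of all 2663 regions at this level were below it. The low glucose counting intervals of AHR, LOC100130075, C2CD2 and LINC00294 included 0.

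At ranks 11 to 40 of the low end, GALK1, the galactokinase that starts galactose use, had 57 HNF4A and 85 IgG reads at high and 59 and 33 at low glucose, log2 ratios of -0.72 (-1.23 to -0.22) and 0.81. KRT8, a keratin of simple epithelia including hepatocytes, had 45 and 65 reads at high and 28 and 30 at low glucose. LIN28A, an RNA-binding protein that blocks let-7 maturation, had 35 and 53 and then 40 and 36. TAF6, a subunit of the general factor TFIID, had 110 and 148 reads at high and 106 and 89 at low glucose. SUMO2, a ubiquitin-like modifier, had 68 and 94 and then 60 and 42. In the high glucose libraries these 5 lay below IgG; in the low glucose libraries 4 lay above it and KRT8 slightly below.

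TFEC, a transcription factor gene of the MITF family, was low in both pairs of libraries, with 142 HNF4A and 197 IgG reads at high and 113 and 167 at low glucose. MMP24, a membrane-type metalloproteinase gene, had 37 and 50 and then 12 and 24 reads, a low glucose log2 ratio of -1.03. A region at RNA5-8S5, a ribosomal RNA gene on an unplaced contig, had 545 and 805 reads at high and 524 and 552 at low glucose, log2 -0.71 (-0.87 to -0.55) at high glucose. It had the most reads of the 30. The remaining neighbours were RTBDN, BSN, HDLBP, XXYLT1, TMEM194A, MTRNR2L1, PSD3, MARK2, ZNF213, ZDHHC24, RHOU, NBPF1, VGF, LOC646862, TMEM9B-AS1, KIF27, BAG1, ENTPD6, SIGLEC16, LINC00854, CCL27 and NARF. The 30 log2 ratios ran from -0.78 to -0.55, 22 of the 30 counting intervals lay wholly below 0, and at low glucose 22 regions were above IgG and 8 below.

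**Figure D3:**
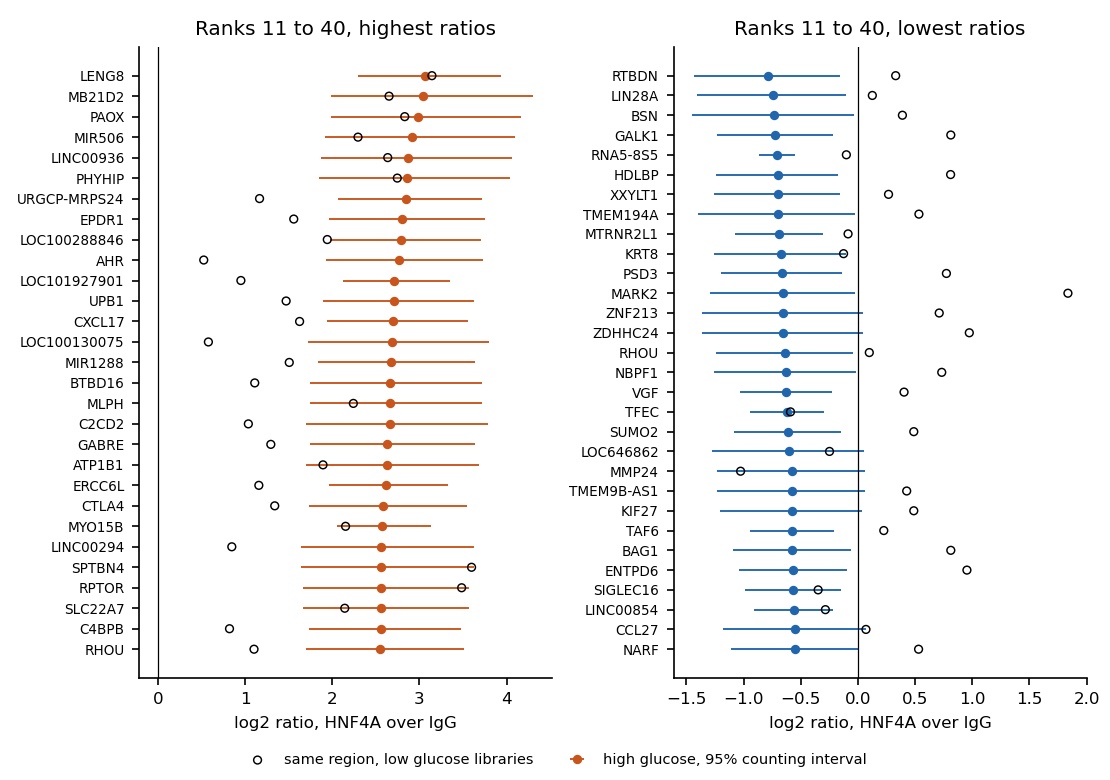
Log2 ratio of HNF4A over IgG (horizontal axes) for ranks 11 to 40 of the highest (left, 29 genes drawn) and lowest (right, 30 genes) ratios at high glucose, 1 region per gene. Filled points with lines are high glucose values with 95% counting intervals, and open circles are the same regions at low glucose, all of which lie above 0 on the left and 22 of 30 on the right.

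Some genes had regions far apart in ratio. RHOU, a small GTPase gene, had 1 region among the highest (84 HNF4A and 13 IgG reads) and another among the lowest (42 and 59 reads). KRT8 had a deeper region of 1777 bp with 114 and 48 reads, log2 1.1 (0.60 to 1.62), besides its low one of 1321 bp. STK11, which encodes the LKB1 kinase upstream of AMPK, had 58 and 44 reads in a region of 1271 bp, log2 0.25 (-0.34 to 0.85), and 4 and 27 in one of 417 bp, log2 -2.90 (-4.88 to -1.38). The short STK11 region had 13 and 11 reads at low glucose. PRKAG2, an AMPK regulatory subunit, had 7 regions with log2 ratios from -0.19 to 1.75 and a median of 0.68. A gene's place in the table thus depended on which of its regions was read, and in the lists below each gene stands for its region with the highest level.

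Over 4319 genes with 1 region each, 3618 (83.8%) were above IgG, 701 (16.2%) below and 1700 (39.4%) at least 2-fold above, with a median log2 ratio of 0.74. The lists below were chosen with earlier results of these data known, and each is described by its count and median beside these values. A count near those shares says nothing about a list.

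Fatty acid genes had the highest median of the pathway lists with at least 5 genes when each gene was taken by its deepest region. Of 34 listed, 13 had a region, 11 were above IgG and 8 at least 2-fold above, and the median log2 ratio was 1.90 at high and 1.41 at low glucose. This median was 1.17 above that of all genes, but 0.75 above without chromosome 7, which carries CD36, 0.72 above with 5 reads added to both sides and 0.77 above with a gene's regions averaged. In the averaged form RAS and MAPK genes were higher, at 1.68 against 1.56. ACSL5, a long-chain acyl-CoA synthetase gene, had 89 HNF4A and 15 IgG reads at high glucose, log2 2.42 (1.62 to 3.32). CPT1A, the rate-limiting carnitine transferase of mitochondrial fatty acid oxidation, had 44 and 9 reads, log2 2.14 (1.09 to 3.36), and stood at 3.93 at low glucose. CD36, a fatty acid translocase, had 88 and 18 reads, log2 2.14 (1.40 to 2.96). SREBF1, the regulator of lipid synthesis, had 52 and 10 reads, log2 2.23 (1.24 to 3.37), and ACADM, a medium-chain acyl-CoA dehydrogenase, 23 and 5, log2 2.06 (0.63 to 3.81). At the other end of the list, the malonyl-CoA decarboxylase gene MLYCD had 30 and 30 reads, and ACSL4 had 33 and 30. The median region of the list had 14 IgG reads per kb, against 25.3 over all genes, and 46.7 HNF4A reads per kb against 45.2; the part of IgG depth in this median was not tested.

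Glycolysis and lipoprotein lists had medians nearer that of all genes than the fatty acid list. Of 29 glycolysis and glucose uptake genes, 12 had a region, all 12 were above IgG and 8 at least 2-fold, with a median of 1.1. SLC2A1, the GLUT1 transporter, had 43 HNF4A and 8 IgG reads, log2 2.28 (1.17 to 3.58), and MLXIPL, the glucose-responsive factor ChREBP, 98 and 21, log2 2.08 (1.39 to 2.83). GPI, the phosphoglucose isomerase gene, had the lowest ratio of the list with 83 and 65 reads, log2 0.21 (-0.28 to 0.70). Genes of lipoprotein and cholesterol metabolism had 7 of 31 with a region, 7 above IgG, 3 at least 2-fold, and a median of 0.73, against 0.74 for all genes. With a gene's regions averaged this median was 1.26, or 0.46 above all genes, and at low glucose it was 1.48 against 0.94. Within it the hepatic lipase gene LIPC had 31 and 4 reads, log2 2.81 (1.31 to 4.77), and APOA1, the main protein of HDL, 31 and 7, log2 2.0 (0.79 to 3.43), while APOE had 75 and 41, log2 0.73 (0.16 to 1.31).

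Of 37 listed secreted proteins of hepatocytes, 7 had a region, 7 were above IgG and 4 at least 2-fold, with a median of 1.18. FGG, a fibrinogen chain, had 18 HNF4A and 3 IgG reads, log2 2.44 (0.66 to 4.84), and AGT, angiotensinogen, had 94 and 32, log2 1.41 (0.82 to 2.04). Among 26 liver transcription factors, 7 had a region, all above IgG, 3 of them at least 2-fold, with a median of 1.0. The gene of HNF4A itself had 43 and 25 reads, log2 0.64 (-0.11 to 1.41). The nuclear receptor list had 13 of 39 with a region, 13 above IgG and 6 at least 2-fold, with a median of 0.96. These counts include AHR, its highest member at log2 2.77, which is not of the nuclear receptor family. The pregnane X receptor gene NR1I2 had 45 and 10 reads, log2 2.02 (1.01 to 3.18). NR3C1, the glucocorticoid receptor gene, had 21 and 16, log2 0.25 (-0.76 to 1.28).

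Signalling lists spread widely. All 18 Wnt genes with a region (of 42 listed) were above IgG, 10 at least 2-fold, with a median of 1.12. LRP5, a Wnt coreceptor, had 149 HNF4A and 44 IgG reads, log2 1.61 (1.12 to 2.13), and AXIN2, a feedback inhibitor of the pathway, 74 and 21, log2 1.67 (0.96 to 2.44), whereas WNT5B had 46 and 40, log2 0.06 (-0.59 to 0.70). RAS and MAPK genes had 16 of 39 with a region, 14 above IgG, 8 at least 2-fold and a median of 1.0. With a gene's regions averaged the median was 1.68, or 0.88 above that of all genes in place of 0.27. Of the list's 14 regions at or above the median level, 5 (35.7%) lay among the 200 highest, against 7.51% of all regions there. DUSP6 and RRAS2 of this list were among the 10 highest regions. Because the list was chosen with earlier results of these data known, this share is no independent support. The phosphatase gene DUSP10 had 65 and 6 reads, log2 3.29 (2.09 to 4.79), and FOS, an immediate early factor, 51 and 8, log2 2.53 (1.44 to 3.81). The kinase gene MAP2K1 had 12 and 16 reads, log2 -0.56 (-1.77 to 0.61), in a region of 332 bp. TGF-beta and SMAD genes had 13 of 33 with a region, 12 above IgG and 4 at least 2-fold, with a median of 0.81; SMAD6, an inhibitory SMAD, had 29 and 5 reads, and the ubiquitin ligase gene SMURF1 had 110 and 128.

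AMPK and mTOR genes, the pathway named in the title of the series, had a lower median than all genes, by an amount that depended on the regions taken. Of 32 listed, 18 had a region, 13 were above IgG and 5 at least 2-fold, with a median of 0.30 at high and 0.76 at low glucose. With a gene's regions averaged the high glucose median was 0.59. Relative to all genes it was then -0.21 in place of -0.44. PRKAA2, the catalytic alpha 2 subunit of AMPK, had 21 HNF4A reads against 1, log2 4.25 (1.61 to 9.62), and 0.39 at low glucose. CAMKK2, a kinase that activates AMPK, had 161 and 58 reads, log2 1.33 (0.89 to 1.79). PRKAG1, a regulatory subunit, had 54 and 59, log2 -0.27 (-0.83 to 0.28), and RICTOR, the mTORC2 scaffold, 22 and 29, log2 -0.54 (-1.41 to 0.30). RPTOR stood at 0.21 here with 74 and 58 reads, since its region of highest level is not the one at the high end. The genes of this pathway thus lay on both sides of IgG, but only 1 of the 5 below it had a counting interval wholly below 0.

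**Figure D4:**
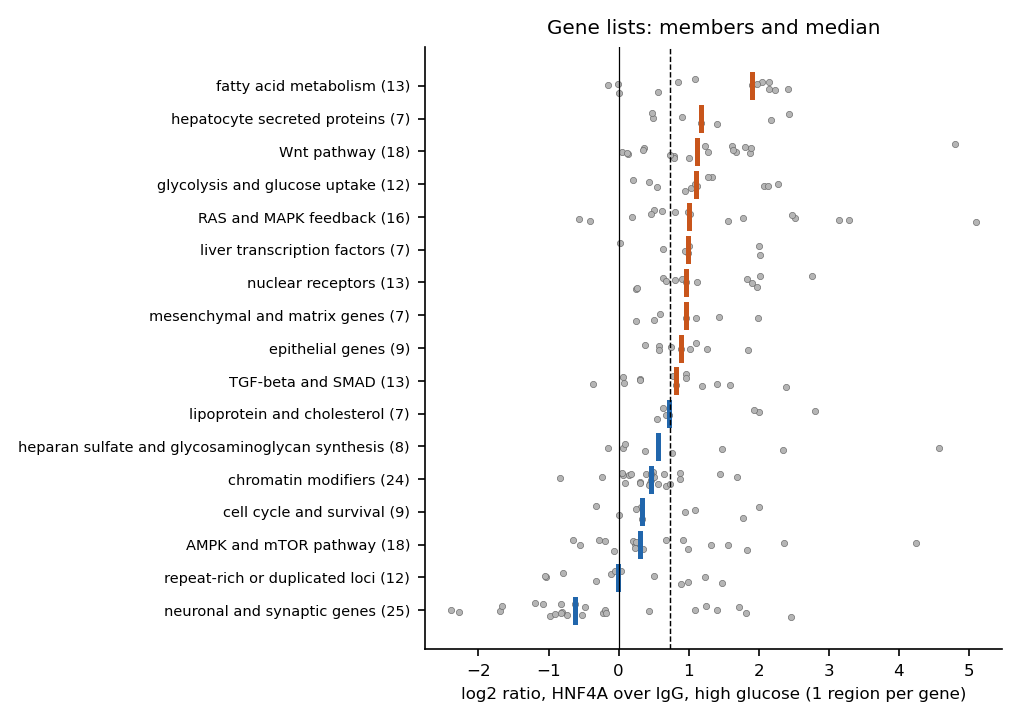
Log2 ratio of HNF4A over IgG at high glucose (horizontal axis), 1 region per gene, for each gene list with at least 5 genes; points are genes, bars are list medians and the number of genes is in parentheses. The dashed line is the median of all genes, 0.74; the bars run from 1.90 for fatty acid metabolism to -0.63 for neuronal and synaptic genes.

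Families defined by gene symbol differed in the same range. ABC transporters had 11 of 11 genes above IgG, 8 at least 2-fold, and a median of 1.48. This median was 0.739 above that of all genes, but 0.497 above without chromosome 7. With the median of regions of like length subtracted it was 0.341 above. ABCC11 had 97 HNF4A and 16 IgG reads, log2 2.45 (1.68 to 3.32), and ABCB4, the phosphatidylcholine exporter of bile, 71 and 23, log2 1.48 (0.78 to 2.23). Interleukins, chemokines and their receptors had 16 of 19 above IgG and 11 at least 2-fold, with a median of 1.49. Of their 11 regions at or above the median level, 4 (36.4%) were among the 200 highest and 1 among the 200 lowest, where all regions had 7.51% in each. CCL20, a chemokine gene, had 65 and 9 reads, log2 2.71 (1.69 to 3.90), and IL32 had 86 and 17, log2 2.19 (1.43 to 3.04), while IL6R, the interleukin 6 receptor gene, had 186 and 181, log2 -0.11 (-0.41 to 0.20).

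KLF and SP zinc finger factors were all above IgG, 9 of 9, with 7 at least 2-fold and a median of 1.49. This median was 0.755 above that of all genes, but 0.324 above with a gene's regions averaged. The pattern of this family was trimmed after values were seen. KLF6 had 49 and 5 reads, log2 3.15 (1.83 to 4.83), and KLF4 had 74 and 18, log2 1.89 (1.14 to 2.72). TNF superfamily genes and receptors had 8 of 9 above IgG, 7 at least 2-fold, and a median of 1.69. TNFRSF1A, the main TNF receptor, had 107 and 30 reads, log2 1.69 (1.09 to 2.32). Integrins and laminins had 7 of 8 above, 6 at least 2-fold, and a median of 1.1, with ITGA6 at 40 and 4 reads. Solute carriers, the largest transporter family, had 71 of 80 above IgG and 39 at least 2-fold with a median of 0.78, close to the shares of all genes.

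Several families and lists with low medians had more IgG reads per kb than the 25.3 of all genes. ZNF-type zinc finger genes had 102 of 135 above IgG, 25 at least 2-fold and a median of 0.33, with 0 regions among the 200 highest. Of their 97 regions at or above the median level, 8 (8.25%) lay among the 200 lowest, against 7.51% of all regions at that level. Their median region had 30.7 IgG and 41.9 HNF4A reads per kb. ZNF638 was their highest with 47 HNF4A reads against 2, log2 4.41 (2.48 to 7.50), and ZNF23 their lowest with 17 against 31, log2 -1.01 (-1.96 to -0.11). Ribosomal protein genes had 15 of 17 above IgG, 2 at least 2-fold and a median of 0.39, and chromatin modifiers 22 of 24 above, 2 at least 2-fold and a median of 0.46, with 34.6 and 30.5 IgG reads per kb. The part of IgG depth in these medians was not tested. The histone methyltransferase genes DOT1L (61 and 17 reads) and EZH2 (103 and 63 reads) stood at 1.70 and 0.56. Translation factor genes had a median of 0.12 at high and 1.06 at low glucose, with 11 of 15 and 14 of 15 above IgG, a difference between the pairs of libraries that was not tested.

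By class of gene in RefSeq, which matched 5103 of 5286 regions with a usable name, neighbours that encode long noncoding RNA or microRNA had higher ratios than coding ones. Regions nearest long noncoding RNA genes (378) had a median log2 ratio of 1.14, with 55.6% at least 2-fold above IgG. Those nearest microRNA genes (157) had a median of 1.18 and 55.4%, whereas the 15 nearest other RNA genes had 0.69, with 6 of them at least 2-fold above. Regions nearest protein-coding genes (4393) had 0.75 and 40.4%. Pseudogene neighbours (160) were lower, with a median of 0.35, 32.5% below IgG and 49.8 IgG reads per kb in a median region of 653.5 bp. Regions nearest noncoding genes had about 20 IgG reads per kb (20.2 for long noncoding and 19.4 for microRNA genes), against 25.2 for coding genes; the part of IgG depth in this order was not tested.

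Neuronal and synaptic genes had the lowest median of all lists and families with at least 5 genes. Of 83 listed, 25 had a region, and 18 of them (72.0%) were below IgG, against 16.2% of all genes. A counting interval wholly below 0 was seen for 10 of the 25, against 81 of all 4319 genes. The list held 5 genes that earlier results of these data had named (SYT7, SCRT1, NPAS4, CACNA1B and KCNK9), so it is no independent support; without them 13 of 20 (65.0%) were below IgG with a median of -0.50. Over all 25, the median was -0.63 with the high glucose libraries and 0.29 with the low glucose ones, where 8 (32.0%) were below IgG, against 6.95% of all genes.

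Low members were genes of synaptic vesicles, postsynaptic scaffolds and neuronal transcription factors. DLGAP3, a postsynaptic scaffold, had 4 HNF4A and 19 IgG reads at high and 8 and 15 at low glucose, log2 -2.39 (-4.41 to -0.81) at high glucose. SCRT2, a neuronal repressor of the Snail superfamily, had 8 and 35 and then 25 and 22 reads, log2 -2.28 (-3.59 to -1.14) at high glucose. CELF4, an RNA-binding protein gene of neurons, had 15 and 44 and then 36 and 29, log2 -1.70 (-2.65 to -0.83). SCRT2 and CELF4 were slightly above IgG at low glucose, DLGAP3 was not. CPLX1, which clamps vesicle fusion, had 7 and 20 and then 16 and 7 reads, and the neuropeptide precursor gene VGF had 91 and 127 and then 101 and 75. BSN, a scaffold of the presynaptic active zone, had 30 and 45 and then 36 and 27. SYP, a synaptic vesicle protein gene, lay close to IgG with 46 and 47 reads at high and 22 and 21 at low glucose.

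The other 7 members of the list lay above IgG. INSM1, a neuroendocrine transcription factor gene, had 61 HNF4A and 10 IgG reads at high and 38 and 22 at low glucose, log2 2.46 (1.49 to 3.59) at high glucose. OLFM1 had 47 and 12 and then 26 and 10, and SHANK3, a postsynaptic scaffold, 51 and 14 and then 33 and 5. Members of the same functional group could differ in ratio. SHANK2 had 13 and 22 reads against those of SHANK3, log2 -0.91 (-2.02 to 0.15) at high glucose. That counting interval includes 0, so SHANK2 is not placed below IgG by its reads.

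Low and high members did not overlap in IgG reads per kb, which is a description, since IgG is a side of the ratio. The same split over all genes is not given here, so the separation cannot be called a trait of this list. The 18 genes below IgG had 36.1 to 224 IgG reads per kb at high glucose, and the 7 above it 9.35 to 22.0. The median region of the list was 773 bp long with 41.9 HNF4A and 55.3 IgG reads per kb, against 45.2 and 25.3 over all genes, whose median region was 1071 bp. At low glucose the list had 33.1 HNF4A and 31.4 IgG reads per kb, against 32.6 and 16.7. The list's HNF4A reads were thus near those of all genes in both pairs of libraries, and its IgG reads were higher in both. The part of region length, base composition and repeat content in these IgG reads was not tested.

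**Figure D5:**
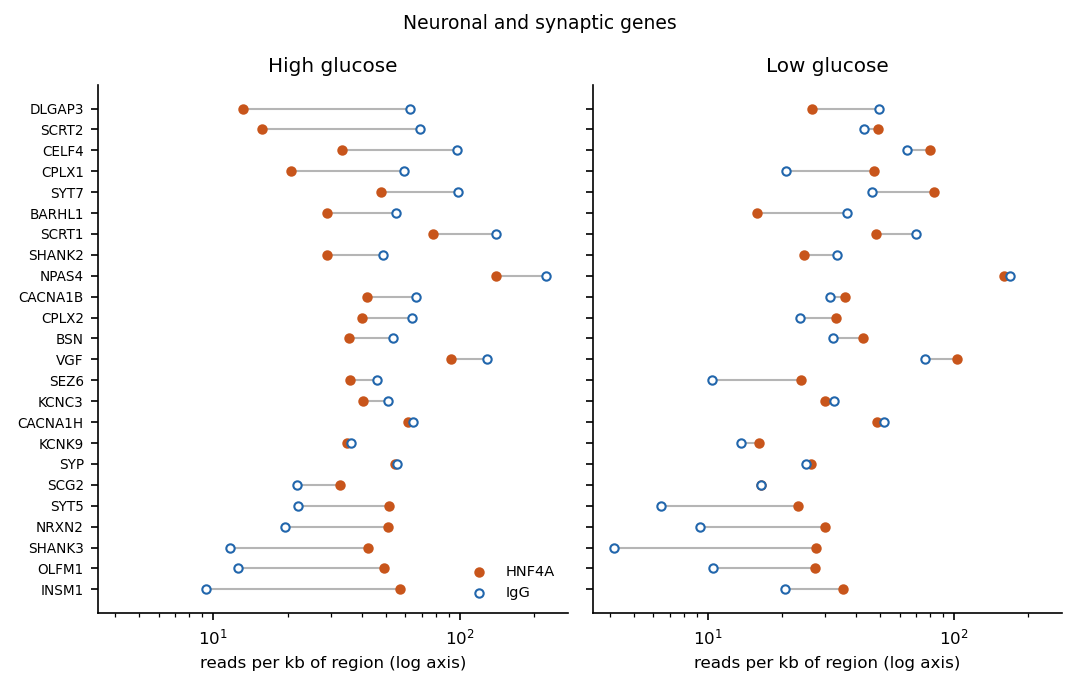
HNF4A (filled) and IgG (open) reads per kb of region, on log axes, for 24 of the 25 neuronal and synaptic genes at high (left) and low (right) glucose, ordered by their log2 ratio at high glucose. IgG lies to the right of HNF4A for 18 genes at high glucose, where the medians over all 25 are 55.3 IgG and 41.9 HNF4A reads per kb.

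The 10 deepest regions had log2 ratios from -0.51 to 0.51. They included duplicated or repeat-rich loci and the genes CAV1, CAV2 and CAPZA2 of chromosome 7. The region nearest EMBP1, a pseudogene, held 18380 HNF4A and 17159 IgG reads, log2 -0.05 (-0.08 to -0.02), and GUSBP4 held 5882 and 5242, log2 0.02 (-0.03 to 0.07). Among 12 genes of a list of such loci, 6 were below IgG, with a median of -0.01 at high and -0.17 at low glucose and 67.1 IgG reads per kb. Many regions shared 1 neighbour here: LOC441666 was nearest to 24 regions, ACTR3BP2 to 15 and ANKRD26P1 to 14. All 7 regions of MTRNR2L1 were below IgG, with a median of -0.49 and 416 HNF4A and 506 IgG reads in sum. By contrast CUX1, a homeobox factor gene, had 7 regions of which 0 were below IgG, with a median of 0.60.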

How the data were processed

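ChIP-seq libraries were made at high and low glucose with HNF4A or IgG antibody, with 15 cycles of PCR per the labels' protocols. Reads were handled with Bowtie 1.1.2, bcl2fastq, HOMER, DiffBind and MACS on build hg19, per the submitters' processing notes. Parameters are not given in the sources used. The deposited tables hold, per the file headers, log2 scaled read levels for each side, and a p-value and false discovery rate by the authors, with the closest gene of each region. Levels without the log were whole multiples of 1 step per library within 0.01, so reads were recovered, at 0.904 scaled reads per HNF4A read and 1 per IgG read at high glucose. A listed 1 may stand for 0 or 1. Values were computed with Python 3.11.15, numpy 2.4.6, pandas 2.3.3, scipy 1.17.1 and matplotlib 3.10.9. Intervals are exact Clopper-Pearson at 95% and cover counting error only, since PCR copies are not independent molecules. On independent simulated reads of 5326 regions, 96.5% held the true ratio. Exact intervals reach 95% on such reads by construction, so this checks the computation only and not the printed intervals.

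No gene name was listed for 33 regions and a spreadsheet date for 7, leaving 5286 regions and 4319 genes. Named genes are ranks 11 to 40 at each end at or above the median level (1 per gene), the deepest regions, the genes with the most regions, and up to 5 highest and 3 lowest members per list or family. Outside that rule, and after their values were seen, the text names the genes of the promoter windows, the ends without a level limit, the second regions of STK11 and KRT8, and LRP5, EZH2, IL32, CPLX1, SYP and SHANK2. Members, lists and families were chosen with earlier results of these data known, and some family patterns (RAB, translation factors, MAP kinases, microRNAs, KLF and SP factors, integrins, potassium channels, phosphodiesterases, protein kinases A and G) were trimmed after values were seen. Alternatives were centring, unscaled reads, 1 or 5 added reads, level and length limits, 100 or 400 regions per end, no level limit at the ends, leaving out chromosome 7, averaging a gene's regions, adjusting for length, and the neuronal list without genes named earlier. The table of HNF4A at high over low glucose was not used. The closest gene differed in 14 regions between the high and low glucose tables, and closeness does not show regulation. Values of a few genes are not reported here.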

Additional observations from a re-analysis of the deposited data

Results flagged for a closer look

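Neuronal and synaptic genes and 12 of the named, deepest or most extreme regions lay on opposite sides of IgG in the 2 pairs of libraries; none of these differences was tested. Over all 5326 regions, 18 (0.338%) had counting intervals wholly below 0 at high and wholly above 0 at low glucose, and 3 the reverse. Of the first kind, 10 were among the 200 lowest ratios, a choice that fixes their side at high glucose. The neuronal list had a median log2 ratio of -0.63 at high and 0.29 at low glucose.

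SYT7, a synaptotagmin gene, went from -1.19 (33 HNF4A and 68 IgG reads) to 0.81 (57 and 32). The polarity kinase gene MARK2 had -0.65 (38 and 54 reads) at high and 1.84 (40 and 11) at low glucose. GALK1 had -0.72 and 0.81, HDLBP, an RNA-binding protein gene, -0.70 and 0.81, and PSD3 -0.67 and 0.77. NBPF1, of a duplicated family, had -0.63 and 0.73, BAG1, a cochaperone of HSP70, -0.57 and 0.81, and ENTPD6, a nucleotidase gene, -0.57 and 0.95. With few reads, DNAH5 had -3.47 and 2.67 and SCRN1 -2.65 (3 and 17 reads) and 1.64 (19 and 6). The deep region of the ribosomal RNA gene RNA5-8S5 had -0.51 and 0.16. LOC101927151, another deep region, lay the other way with 0.08 (4389 and 3749 reads) and -0.14 (3785 and 4095).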

How the results depend on the processing

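Settings moved counts more than medians. Centring on the median of all regions set that median to 0.0000, gave 956 regions at least 2-fold above and 496 at least 2-fold below, and 105 and 1244 counting intervals above 2-fold and below 0. Adding 5 scaled reads to both sides gave 22 regions at least 2-fold below and 392 intervals above 2-fold. Reads without scaling gave 58 intervals below 0. Regions at or above the median level gave 757 and 4 regions past 2-fold above and below, 287 and 54 such intervals, and 21 of 36 lists and families above the median of all genes, against 34 of 53 over all regions. Regions of 500 bp or longer gave 11 at least 2-fold below and 71 intervals below 0. With 400 regions at each end, 26.75% of the low end were below IgG at low glucose, against 34.0% with 200. The 458 other comparisons of a list with all genes moved by less than the median half-width of its members' counting intervals. That width belongs to single genes and not to a list median, so it does not measure how stable a list is. Centring and unscaled reads shift all genes alike and could not move these comparisons. The most lists changing side was 6 of 53, when a gene's regions were averaged, and 5 of 53 when the median of regions of like length was subtracted, a setting chosen after seeing the data. Relative to all genes the neuronal and synaptic median was -1.36, and ran from -1.40 to -1.10 over the alternatives, the weakest with regions of 500 bp or longer (18 genes); without the 5 genes named earlier it was -1.23. The fatty acid median was 1.17 above that of all genes, and 0.70 above it once like lengths were subtracted. Unscaled reads raised the median of all regions from 0.79 to 0.94. No paired analysis was possible because each group has 1 library, and leaving a library out leaves no comparison.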

Other observations

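Neighbouring genes at 116 Mb of chromosome 7 formed a run of very deep regions on both sides of the comparison. The region of CAV2 (hg19, 116061953 to 116069025) held 3196 HNF4A and 2040 IgG reads, that of CAV1 (116163221 to 116168996) 5776 and 4379, that of MET (116353405 to 116357806) 1535 and 1165, and that of CAPZA2 (116500154 to 116505281) 1903 and 1603. CAV1 and CAV2 encode caveolins, MET the hepatocyte growth factor receptor and CAPZA2 an actin capping subunit. Their log2 ratios were 0.50, 0.25, 0.25 and 0.10 at high glucose, where all regions had a median of 0.79 and the 533 regions of highest level 0.37, and -0.01, 0.22, 0.08 and 0.13 at low glucose. These 4 regions were chosen after their values were seen.

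Chromosomes differed in their median ratio and in IgG reads per kb. Chromosome 6 had 128 regions with a median log2 ratio of 1.59 (1.58 at low glucose) and 13 IgG reads per kb, and chromosome 5 had 100 with 1.37 and 15.2. Chromosome 19 had 361 regions with 0.60 and 29.6, and chromosome 7 had 498 with 0.64 and 29.4. Regions on unplaced contigs (43) had a median of 0.10 and 79.6 IgG reads per kb. Chromosome 13 had 3 regions.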
